A study of Mus musculus with 6 samples.

Results

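Bitter taste receptor genes were measured in bronchial smooth muscle cells (BSMCs) sorted from the lungs of control mice and of mice with allergic airway inflammation. The 8 genes described here, Tas2r143, Tas2r135, Tas2r126, Tas2r138, Tas2r137, Tas2r118, Tas2r108 and Tas2r107, were selected by symbol from the 20239 genes tested and are among the 35 Tas2r genes measured. Every mouse carried SMA-GFP, a green protein under the α-smooth muscle actin promoter, and NG2-DsRed, a red protein under the NG2 promoter, and the labels give the strain as C57BL/6J. Control mice were sensitized with PBS and asthma mice with 50 µg of OVA on days 0 and 7. Mice of both groups inhaled OVA on 5 days, from day 14 to day 18, and were analyzed on day 19, so control lungs met the allergen as well. BSMCs were the sorted green cells without red signal, CD31 or CD45, from pools of mice according to the Methods, whereas the labels speak of microdissected tissue of single animals and list OVA as the sensitizing agent throughout.

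Each group held 3 arrays with 1 sample each, called PBS 1 to 3 and OVA 1 to 3. Values are log2 levels, so that a difference of 1 means 2 times the level. OVA 2 stood apart: its root mean square distance from the mean of the other arrays was 0.571, against 0.189 to 0.315 for the others, and its lower quartile was 5.71 against 5.25 to 5.35. The Methods left out 1 asthma array without naming it, and OVA 2 was taken to be that array because it was the farthest from the rest. Differences are therefore given for OVA 1 and OVA 3 against PBS, and then with OVA 2 included. Genes of low level read high on OVA 2: of 5020 genes with a mean level under the lower quartile, 92.1% lay above their PBS mean there, by a median of 0.48, against 53.2% of all genes. The spread between these few samples is the only error that any p-value below measures.

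Bitter taste receptors (TAS2Rs) are G protein-coupled receptors that detect bitter compounds on the tongue. In taste cells they act through gustducin, phospholipase Cβ2, the inositol trisphosphate receptor and the TRPM5 channel to raise calcium. They are also found in the airways, in tuft cells, in the motile cilia of human airway epithelium and on smooth muscle, where bitter agonists relax contracted airways.

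Tas2r143, Tas2r135 and Tas2r126 lie next to each other on chromosome 6 and were the members whose OVA arrays all lay below the PBS arrays. These 3 genes appear in the study's own list of genes that differ in this contrast, so their differences are described and not tested. Bases around the start of each gene are shown because these neighbours differed in the same direction, and so that their starts can be read side by side. The windows hold 250 bases before and 50 bases after the RefSeq gene start in GRCm38.p6, in the direction of the gene. Capitals mark the octamer ATTTGCAT, a motif that POU domain factors bind.
Tas2r143, chr6:42399988-42400287, plus strand: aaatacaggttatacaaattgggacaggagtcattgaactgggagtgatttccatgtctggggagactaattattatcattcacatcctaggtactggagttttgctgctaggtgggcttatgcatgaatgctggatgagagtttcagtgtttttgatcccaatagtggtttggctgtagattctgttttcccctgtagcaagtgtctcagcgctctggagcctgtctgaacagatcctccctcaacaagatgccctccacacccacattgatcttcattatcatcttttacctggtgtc
Tas2r135, chr6:42405279-42405578, plus strand: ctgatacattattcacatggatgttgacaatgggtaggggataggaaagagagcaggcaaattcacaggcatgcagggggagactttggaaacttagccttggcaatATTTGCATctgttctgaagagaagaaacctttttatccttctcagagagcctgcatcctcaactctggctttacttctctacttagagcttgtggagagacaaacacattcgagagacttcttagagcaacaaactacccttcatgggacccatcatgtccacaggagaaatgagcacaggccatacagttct
Tas2r126, chr6:42434285-42434584, plus strand: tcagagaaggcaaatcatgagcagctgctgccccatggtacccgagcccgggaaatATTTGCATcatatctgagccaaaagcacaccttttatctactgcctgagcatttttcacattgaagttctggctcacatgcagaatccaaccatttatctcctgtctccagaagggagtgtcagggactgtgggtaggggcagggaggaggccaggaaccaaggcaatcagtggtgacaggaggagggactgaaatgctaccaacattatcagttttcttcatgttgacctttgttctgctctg

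All 8 members had a window in the RefSeq table, and 7 of these windows have ATG at the gene start, so that in these the bases after the start are coding and the transcription start is not known. The octamer was found in 6 of the 8 members, in 1 of 23 windows of other Tas2r genes and in 570 of all 32851 windows (1.74%), searching ATGCAAAT on both strands. It was picked after the windows had been seen, so these counts describe a pattern that was noticed first and carry no test. Relative to the gene start, it began at -143 in Tas2r135 and at -194 in Tas2r126, and Tas2r143 and Tas2r138 held no exact match. The other 4 members with a match are shown with 10 bases on each side.
Tas2r137, chr6:40491036-40491063, plus strand: actgggcattATTTGCATctcaacaaag
Tas2r108, chr6:40493436-40493463, plus strand: tccttgaaagATTTGCATctcagtaaaa
Tas2r118, chr6:23970167-23970194, minus strand: tgtaaggaggATTTGCATccacaaagaa
Tas2r107, chr6:131660368-131660395, minus strand: tgattgctaaATGCAAATagttccaaag

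The match began at -192 in Tas2r137, -146 in Tas2r108, -124 in Tas2r118 and -236 in Tas2r107, where it reads in the opposite direction. Tas2r143 and Tas2r138 lacked the octamer and stood above the lower quartile on every array. Tas2r135 and Tas2r126 held it and stood above on every array, and Tas2r108 and Tas2r107 held it and stood below. A link between octamer and level was not tested. The other motifs were also searched on both strands. TATAAA occurred in 1 member, Tas2r107, in 9 of 23 other Tas2r windows and in 13.6% of all windows. The STAT6 site, TTC and GAA with 4 bases between, occurred in 1 member, Tas2r108, in 4 of 23 others and in 6.95% of all. The CArG box of smooth muscle genes occurred in 0 members, in 0 of 23 others and in 1.63% of all. The E-box CAGCTG occurred in 2 members, Tas2r126 and Tas2r108, in 1 of 23 others and in 16.3% of all.

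Tas2r135 encodes a bitter receptor and read 7.79, 8.02 and 7.59 on PBS 1, 2 and 3 and 7.11, 7.21 and 6.14 on OVA 1, 2 and 3. All OVA values were below all PBS values, and OVA 3 was the lowest. The mean was 7.80 ± 0.21 (SD, n = 3) for PBS and 6.62 ± 0.69 (SD, n = 2) for OVA 1 and OVA 3, a difference of -1.18, or 44.3% of the PBS level. With OVA 2 the difference was -0.98, or 50.7%. Between the lowest PBS array and the highest OVA array there was a gap of 0.38.

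Tas2r143, its neighbour and also a bitter receptor gene, read 7.73, 7.86 and 7.45 on the PBS arrays and 7.08, 6.80 and 6.26 on the OVA arrays. The groups again did not overlap, and OVA 3 was again the lowest. The mean was 7.68 ± 0.21 (SD, n = 3) for PBS and 6.67 ± 0.58 (SD, n = 2) for OVA 1 and OVA 3, a difference of -1.01, or 49.7% of the PBS level. The difference was -0.96 with OVA 2, or 51.2%.

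Tas2r126, the last of the adjacent genes, read 6.64, 6.22 and 6.24 on the PBS arrays and 6.04, 6.06 and 5.61 on the OVA arrays. The groups did not overlap, but the gap between them was narrow, at 0.15. The mean was 6.36 ± 0.24 (SD, n = 3) for PBS and 5.82 ± 0.31 (SD, n = 2) for OVA 1 and OVA 3, a difference of -0.54, or 68.8% of the PBS level. With OVA 2 it was -0.46, or 72.7%. The size of the difference in all 3 genes depended on OVA 3: without it, OVA 1 alone lay below the PBS mean by -0.69 for Tas2r135, -0.60 for Tas2r143 and -0.32 for Tas2r126. Among all genes the median difference was -0.02, or 0.03 with OVA 2.

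**Figure D1:**
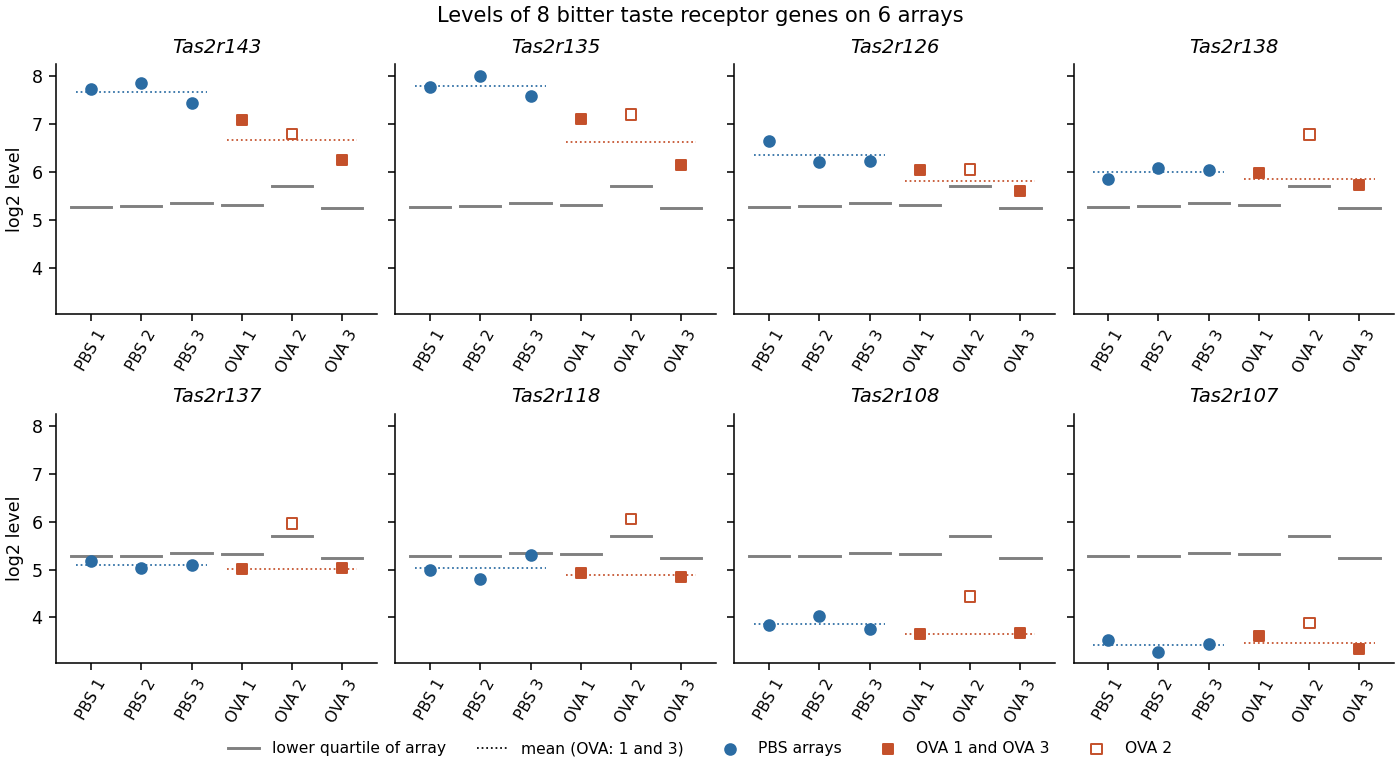
Log2 level of each of the 8 genes on each array (circles, PBS; filled squares, OVA 1 and OVA 3; open squares, OVA 2), with the lower quartile of all probe sets on that array (grey bars) and group means (dotted lines; the OVA mean is of OVA 1 and OVA 3). Tas2r143, Tas2r135 and Tas2r126 are lower on every OVA array than on every PBS array, and the other 5 genes are higher on OVA 2 than on any PBS array.

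The other 5 members differed little between PBS and OVA 1 and OVA 3. Tas2r138, the mouse counterpart of the human phenylthiocarbamide receptor, read 5.86, 6.08 and 6.05 on PBS arrays and 5.99, 6.78 and 5.73 on OVA arrays. OVA 1 lay within the PBS range, OVA 2 above it and OVA 3 below it. The difference was -0.14 for OVA 1 and OVA 3 and 0.17 with OVA 2.

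Tas2r137, the counterpart of human TAS2R3, read 5.18, 5.03 and 5.09 on PBS arrays and 5.01, 5.96 and 5.03 on OVA arrays. Tas2r118, the counterpart of the human salicin receptor TAS2R16, read 4.98, 4.81 and 5.30 on PBS arrays and 4.93, 6.06 and 4.85 on OVA arrays. In both genes OVA 1 and OVA 3 overlapped with PBS and OVA 2 was the highest array. The differences were -0.08 for Tas2r137 and -0.14 for Tas2r118, and 0.24 and 0.25 with OVA 2.

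Tas2r108, whose human counterpart TAS2R4 responds to denatonium, read 3.85, 4.02 and 3.75 on PBS arrays and 3.66, 4.44 and 3.67 on OVA arrays. OVA 1 and OVA 3 were below all PBS arrays by a gap of 0.07, and OVA 2 was above them. The difference of -0.21 became 0.05 with OVA 2. Tas2r107 read 3.53, 3.28 and 3.45 on PBS arrays and 3.60, 3.88 and 3.33 on OVA arrays, with overlap throughout and differences of 0.04 and, with OVA 2, 0.18.

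The members also separated by where they stood on an array. Tas2r143, Tas2r135, Tas2r126 and Tas2r138 were above the lower quartile on all 6 arrays, Tas2r137 and Tas2r118 on OVA 2 only, and Tas2r108 and Tas2r107 on none. On the PBS arrays, Tas2r135 stood between percentiles 63.5 and 70.5 of all probe sets and Tas2r143 between 60.9 and 67.9. On OVA 1, 2 and 3, Tas2r135 stood at 55.6, 59.5 and 40.1 and Tas2r143 at 55.1, 50.3 and 42.1. Tas2r126 stood between 40.7 and 48.6 on PBS arrays and at 38.0, 32.3 and 30.6 on OVA 1, 2 and 3. Among the members above the lower quartile on all arrays, Tas2r126 came nearest to it, at 6.06 against 5.71 on OVA 2 and 5.61 against 5.25 on OVA 3. Nearest from below on a PBS array was Tas2r118 on PBS 3, at 5.30 against 5.35. A level under the lower quartile may be background of the probes, and differences there say little about the transcript.

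Of the 8 members, 4 were lower on OVA 1 and OVA 3 than on every PBS array, where 16.8% of all genes were, and 0 were higher, where 11.9% of all genes were. With OVA 2 included, 3 were lower on every OVA array, against 7.83% of all genes, and 0 higher, against 4.16%. The 3 were Tas2r143, Tas2r135 and Tas2r126. The genes were chosen from this contrast, and nothing is read from these counts.

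The remaining 27 Tas2r genes stood low on the arrays, and their median difference was close to that of all genes. None of them was above the lower quartile on any of the 5 arrays other than OVA 2, and Tas2r130 alone was above it on OVA 2. The median was -0.05 for OVA 1 and OVA 3 and 0.21 with OVA 2. At a false discovery rate (FDR) under 0.25, 0 of the 27 were called by limma, where 0.0395% of all genes were. At an unadjusted p under 0.05, 1 was lower and 0 were higher, against 4.78% and 4.53% of all genes. The 1 gene was Tas2r116, at 4.11, 3.92 and 4.10 on PBS arrays and 3.86, 4.73 and 3.41 on OVA arrays, with a difference of -0.41 (adjusted p = 0.517 by limma) and of -0.04 with OVA 2. On OVA 2, all 27 lay above their PBS mean, by a median of 0.69, and so did the 5 members outside the adjacent group, by 0.78. Tas2r143, Tas2r135 and Tas2r126 were the 3 of 35 Tas2r genes below their PBS mean on OVA 2, by -0.87, -0.59 and -0.30.

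**Figure D2:**
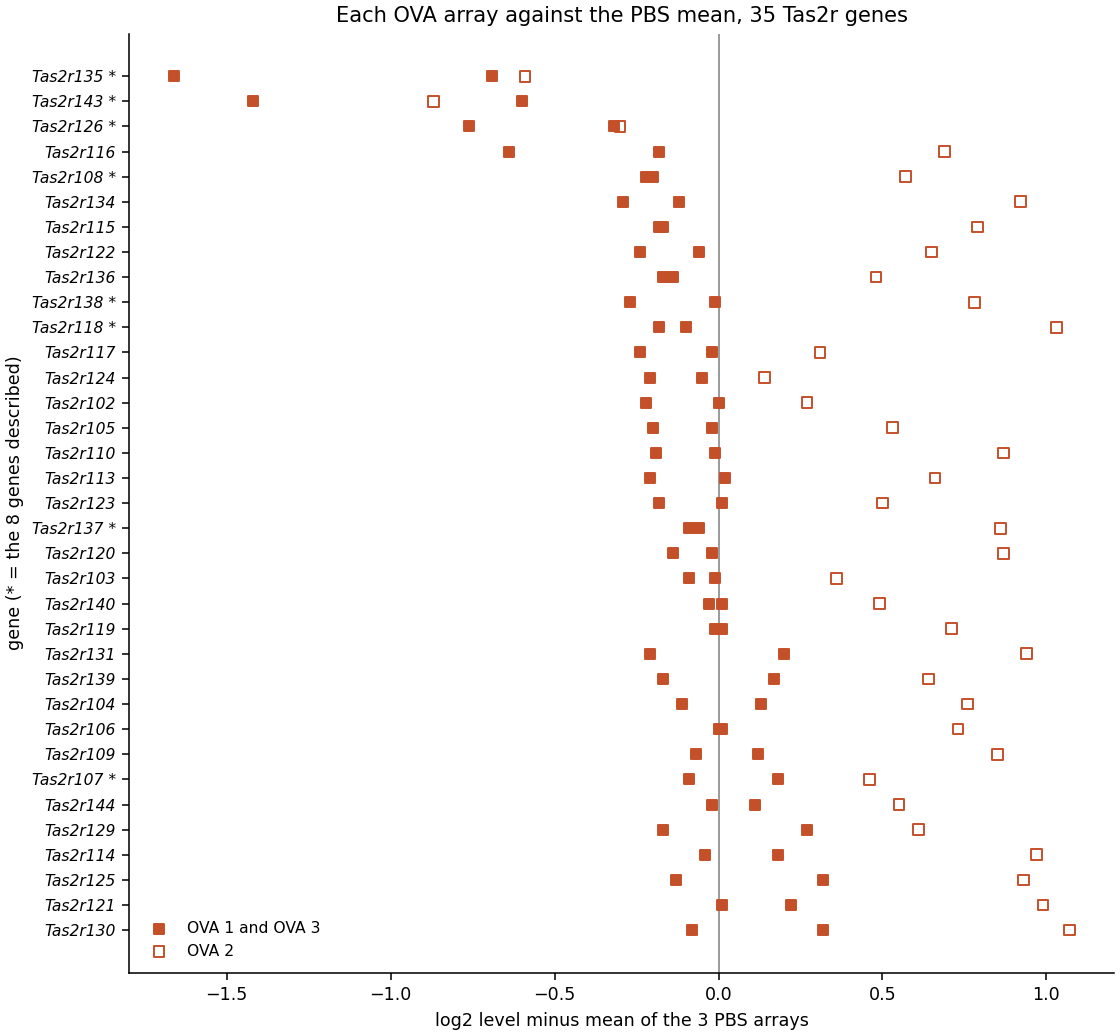
Log2 level on each OVA array minus the mean of the 3 PBS arrays (horizontal axis) for the 35 Tas2r genes, ordered by the mean of OVA 1 and OVA 3 (filled squares), with OVA 2 as open squares and the 8 described genes starred. Tas2r135, Tas2r143 and Tas2r126 have all 3 OVA arrays left of 0, and the open squares of the other 32 genes lie right of it.

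Genes around the adjacent group were compared with it. In the order of the RefSeq annotation, the nearest measured genes were Zyx and Epha1 before Tas2r143, and the olfactory receptor genes Olfr458 and Olfr457 after Tas2r126. Epha1, an ephrin receptor gene, read 6.72, 6.85 and 6.64 on PBS arrays and 6.33, 6.59 and 6.06 on OVA arrays. It was thus also below every PBS array on each OVA array, with a difference of -0.54 ± 0.119 (SE; adjusted p = 0.480 by limma), or -0.41 with OVA 2 (adjusted p = 0.892). Zyx, which encodes the focal adhesion protein zyxin, differed by -0.07 and overlapped. Olfr458 and Olfr457 overlapped as well, with differences of -0.12 and 0.36, and both read highest on OVA 2.

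**Figure D3:**
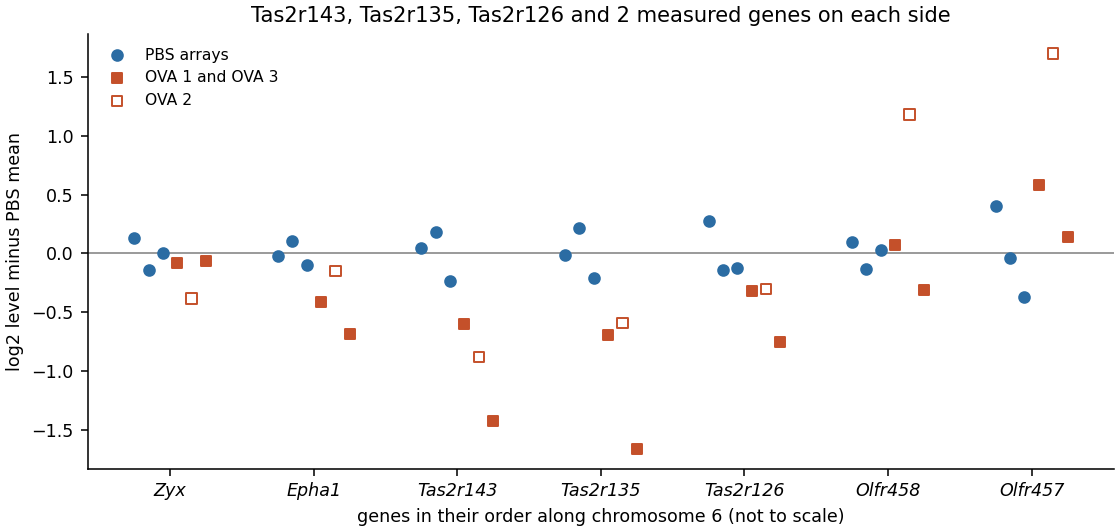
Log2 level on each array minus the PBS mean for Tas2r143, Tas2r135, Tas2r126 and 2 measured genes on each side, in chromosomal order and not to scale. The OVA arrays fall below the PBS arrays in Epha1 and the 3 receptor genes, and overlap with them in Zyx, Olfr458 and Olfr457.

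Tas2r137 and Tas2r108 are also adjacent, between Ssbp1 and Prss37, and neither these genes nor Wee2 and Olfr461 beyond them had OVA 1 and OVA 3 apart from PBS. Around Tas2r138, Tas2r118 and Tas2r107, 1 gene was lower on all OVA arrays. This was Iqub, which lies near Tas2r118 and is linked to motile cilia, with a difference of -0.63 (adjusted p = 0.532 by limma). The gap between its groups was 0.08, and it was above the lower quartile on PBS 1 and PBS 3 only.

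The genes whose pattern over the 6 arrays was most like the mean of Tas2r143, Tas2r135 and Tas2r126 were Lrp6 (Pearson r = 0.997), a Wnt coreceptor, Cdkn1c (0.983), a cell cycle inhibitor, Akap12 (0.982), a kinase anchoring protein, Gas2 (0.981) and the clock gene Per2 (0.981). The points are 6 arrays in 2 groups, so a split between the groups alone gives a high value. Lrp6 read 9.68, 9.69 and 9.58 on PBS arrays and 9.47, 9.43 and 9.23 on OVA arrays, a difference of -0.30. Per2 differed by -0.51, Cdkn1c by -0.51, Akap12 by -0.39 and Gas2 by -0.26.

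Genes for the proteins that carry the bitter signal inside the cell gave no call at the FDR threshold, which few genes passed at all. Of 25 genes listed for bitter transduction, 23 were measured. At an FDR under 0.25, 0 were called by limma, where 0.0395% of all genes were. At an unadjusted p under 0.05, 1 was lower and 0 were higher, against 4.78% and 4.53% of all genes. Their median difference was -0.09, or -0.05 with OVA 2. On OVA 1 and OVA 3, 9 were lower than on every PBS array and 2 higher, where 16.8% and 11.9% of all genes were. With OVA 2 included, 3 were lower and 0 higher, against 7.83% and 4.16% of all genes. Trpm4, a cation channel downstream of calcium, was the gene at an unadjusted p under 0.05. It read 7.26, 7.20 and 7.26 on PBS arrays and 7.09, 6.78 and 6.96 on OVA arrays, a difference of -0.21 (adjusted p = 0.533 by limma).

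The taste-specific parts of the cascade stood low. Gnat3, which encodes α-gustducin, read 2.89 to 3.06 on PBS arrays and 2.87, 3.48 and 2.85 on OVA arrays. Trpm5, the taste channel, read 4.95 to 5.07 on PBS arrays and 4.92, 5.67 and 4.93 on OVA arrays. Gnat3, Trpm5 and Rgs21, a regulator of G protein signaling in taste cells, were below the lower quartile on every array. Gng13, the gustducin γ subunit, differed by -0.25 (adjusted p = 0.535) and was above the lower quartile on 3 arrays. Plcb2, Itpr3 and Gnb3, the phospholipase, the calcium release channel and the gustducin β subunit, were above it on all arrays, with differences of 0.18, -0.25 and -0.07 and overlapping groups. Gnai2, an inhibitory G protein subunit present in most cells, read 11.22 to 11.23 on PBS arrays and differed by 0.08, or by -0.05 with OVA 2. Plcb3, a widespread phospholipase, differed by 0.23 (adjusted p = 0.565).

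Genes that act further downstream in smooth muscle were also listed. Of 14 channel and calcium handling genes that bitter agonists have been linked to, 12 were measured, and 0 passed an FDR under 0.25 or an unadjusted p under 0.05. Kcnma1, the pore of the large conductance potassium channel, read 8.40, 7.17 and 7.71 on PBS arrays and 7.71, 6.55 and 8.24 on OVA arrays, and Cacna1c, the L-type calcium channel, differed by 0.31. The groups overlapped for both. Stim1, the calcium store sensor, was lower on all OVA arrays, by -0.17 (adjusted p = 0.589). Of 7 genes of receptor desensitization, 6 were measured and 0 passed either threshold. Arrb2, a β-arrestin, differed by 0.02. The sweet and umami receptor genes Tas1r1, Tas1r2 and Tas1r3 differed by -0.02, -0.08 and 0.05, and 0 of 3 passed either threshold.

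Marker genes of other cell types, some of which can express bitter receptors, were set beside the members. The sort for green cells without CD31 or CD45 should remove epithelial cells as well as endothelial cells and leukocytes. Bulk RNA does not tell fewer cells of a type from less RNA per cell. For OVA 1 and OVA 3, 11391 of all 20239 genes had a negative difference, which also applies to the negative counts below. Of 12 measured markers of ciliated cells, all 12 had a negative difference, with a median of -0.44. Their summed level, to which Tppp3 adds most, was 11.74 to 11.94 on PBS arrays and 11.43, 10.64 and 11.42 on OVA 1, 2 and 3. Tppp3 itself, with a difference of -0.33, overlapped between the groups. On this sum the OVA arrays were lower throughout, as for the adjacent receptors. Taken singly, 7 of the 12 markers were lower on every OVA array, where 7.83% of all genes were. Within the groups, the arrays ranked otherwise than for the receptors, here and on the general epithelial, club and endothelial lists below. What this means for the receptors was not tested. By mean log2 level, ciliated markers read 6.98, 6.95 and 7.33 on PBS arrays and 6.82, 6.37 and 6.40 on OVA arrays. The mean of Tas2r143, Tas2r135 and Tas2r126 was 7.38, 7.36 and 7.10 on PBS arrays and 6.74, 6.69 and 6.00 on OVA arrays. By limma, 0 passed an FDR under 0.25 and 3 were lower at an unadjusted p under 0.05, where 4.78% of all genes were. That share also applies to the counts of lower markers at this p below, and 4.53% to the counts of higher ones. Foxj1, the master factor of motile cilia, read 7.17, 7.20 and 7.70 on PBS arrays and 7.11, 6.70 and 6.61 on OVA arrays (-0.50, adjusted p = 0.543), and Sntn, a cilium tip protein, differed by -1.16 (adjusted p = 0.480).

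Markers of epithelium in general were likewise lower, with 10 of 11 negative, a median of -0.40, 6 lower at an unadjusted p under 0.05 and 0 at an FDR under 0.25. Their summed level was 10.95 to 11.24 on PBS arrays and 10.74, 10.50 and 10.74 on OVA arrays. Krt8, a keratin, differed by -0.71 (adjusted p = 0.480), and Cdh1, E-cadherin, by -0.39 (adjusted p = 0.516), whereas Epcam overlapped at -0.16. Of 11 markers of club and secretory cells, 10 were negative, with a median of -0.25, 5 lower at an unadjusted p under 0.05 and 0 at an FDR under 0.25. Their summed level, to which Scgb1a1 adds most, was 12.37 to 12.79 on PBS arrays and 12.06, 10.75 and 12.19 on OVA arrays. Scgb1a1 itself, with a difference of -0.11, overlapped between the groups. Cyp2f2, a club cell cytochrome, differed by -1.01 (adjusted p = 0.267 by limma). The study's own analysis called this gene at an FDR under 0.25. No defining marker of ciliated cells or of epithelium in general was under the lower quartile on every array. Endothelial markers were lower as well, with 8 of 9 negative and a median of -0.44. Of the 9, 5 were lower on every OVA array than on every PBS array, where 7.83% of all genes were. By limma, 0 of the 9 passed an FDR under 0.25 or an unadjusted p under 0.05. Their summed level was 11.98 to 12.79 on PBS arrays and 11.85, 10.24 and 11.92 on OVA arrays, and Cdh5, VE-cadherin, differed by -0.44 (adjusted p = 0.566). Summed markers of epithelium and of endothelium were therefore lower on the same 3 OVA arrays as Tas2r143, Tas2r135 and Tas2r126, and their part in the difference was not tested.

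Of 16 measured markers of tuft cells, the chemosensory cells of the airway, 12 were negative, with a median of -0.07. On OVA 1 and OVA 3, 6 were lower than on every PBS array and 2 higher, against 16.8% and 11.9% of all genes. With OVA 2 included 0 were lower and 1 higher, against 7.83% and 4.16% of all genes. By limma, 0 passed an FDR under 0.25, and 0 were lower and 1 was higher at an unadjusted p under 0.05. The summed level, to which Dclk1 and Alox5ap add most, was 10.10 to 10.59 on PBS arrays and 10.60, 10.56 and 10.60 on OVA arrays. Pou2f3, the POU domain factor that specifies tuft cells, read 5.68, 5.63 and 5.71 on PBS arrays and 5.69, 6.41 and 5.58 on OVA arrays. Trpm5, Gnat3 and Chat, defining markers of these cells, were below the lower quartile on every array, where a difference would be hard to measure. The other defining markers, Pou2f3, Dclk1, Avil and Il25, were above it on every array. Dclk1 differed by 0.56, Avil by -0.21 and Il25 by -0.18, with overlapping groups. The 1 higher gene was Ltc4s, leukotriene C4 synthase, which mast cells and other leukocytes also express, at 0.52 (adjusted p = 0.480).

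Smooth muscle markers, which the sort selects for, had positive differences, with 0 of 10 negative, a median of 0.63, and a summed level of 13.51 to 14.56 on PBS arrays and 14.56, 13.86 and 14.85 on OVA arrays. The groups overlapped on this sum, and 1 of the 10, Actg2, was higher at an unadjusted p under 0.05 (1.19, adjusted p = 0.505). Acta2, whose promoter drives the green protein, read 12.39, 11.87 and 12.13 on PBS arrays and 12.44, 12.09 and 12.52 on OVA arrays. Leukocyte markers, which the sort should remove, had positive differences, with 0 of 11 negative and a median of 0.67, or 0.09 with OVA 2. On OVA 1 and OVA 3, 9 were higher than on every PBS array, where 11.9% of all genes were. With OVA 2 included 0 were, against 4.16% of all genes. These markers summed to 10.80 to 11.85 on PBS arrays and to 12.00, 10.23 and 12.34 on OVA arrays. OVA 2 thus went the other way from OVA 1 and OVA 3. Fibroblast markers summed to 14.30 to 14.51 on PBS arrays and 14.44, 14.75 and 14.27 on OVA arrays. Markers of cardiomyocytes and of Schwann cells and neurons overlapped between the groups in their sums, with median differences of 0.15 and -0.02. On no list did a gene pass an FDR under 0.25 in the fit used here.

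**Figure D4:**
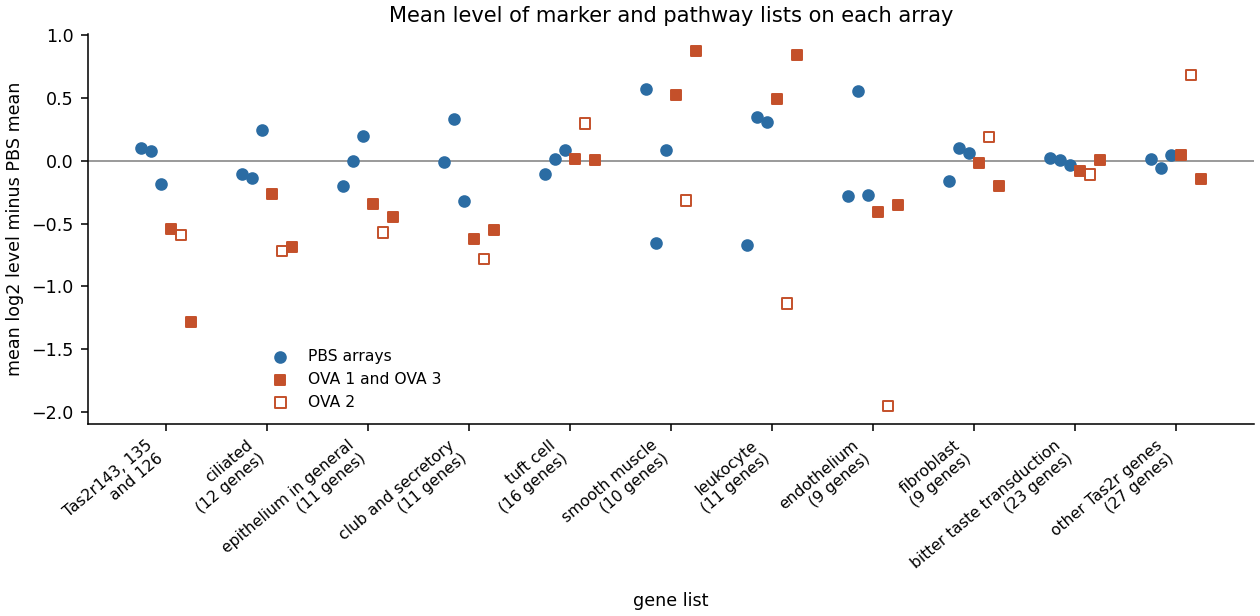
Mean log2 level of each gene list on each array minus its PBS mean, beside the mean of Tas2r143, Tas2r135 and Tas2r126. The OVA arrays lie below the PBS arrays for the receptor genes and for the ciliated, general epithelial, club and endothelial lists, and overlap with them for the tuft cell and bitter transduction lists.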

How the data were processed

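RNA of sorted BSMCs was hybridized to whole-transcript Affymetrix Mouse Gene ST arrays, 1 per sample. The deposited values are log2 levels per Entrez gene, which the authors background corrected, normalized and summarized by RMA. The submitters' notes name affy for RMA, whereas the Methods name a probe-level model fit in oligo. The deposited values may therefore differ from those behind the study's own lists. The build and the versions were not given in the sources used here. Values were used as deposited. The table of 21225 probe sets held 20239 with 1 symbol, which were tested; the other 986 had no symbol in the annotation used and were not analysed. Groups follow the sample titles. The number of arrays limits the precision.

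Differences are OVA minus PBS on the log2 scale. All genes were fitted, with no p given for members, by lmFit and eBayes of limma 3.58.1 (statmod 1.5.0, R 4.3.3), two-sided, with Benjamini-Hochberg FDR over all 20239 genes and a threshold of 0.25 as in the Methods. Arrays were PBS 1 to 3, OVA 1 and OVA 3. The code was tested on simulated data. The members and all gene lists were chosen with earlier results of these data known. Genes named are all members, other Tas2r genes above the lower quartile or at an unadjusted p under 0.05, neighbours, and the 5 genes most alike. From the lists, mainly defining genes and up to 4 genes of smallest p by limma are named, though not all of these. Genes named for a small p can differ more than their list as a whole. Lists held bitter transduction, smooth muscle targets, desensitization, sweet and umami receptors, and markers of tuft, smooth muscle, fibroblast, club, ciliated, epithelial, endothelial, leukocyte, cardiomyocyte, and Schwann or neuronal cells. Summed levels are log2 of the sum of linear levels. Windows around gene starts are from RefSeq (GRCm38.p6).

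Alternatives were use of all 6 arrays, array weights on all 6, omission of single arrays, quantile normalization, median centring, distance from the lower quartile, a filter under percentile 25, an intensity trend with robust variance, and the replicate number as a block. Array weights were estimated gene by gene, chosen after another estimate did not converge, and the mean log2 level of marker lists was added after seeing the data.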

Additional observations from a re-analysis of the deposited data

How the results depend on the processing

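Tas2r143, Tas2r135 and Tas2r126 stayed lower in OVA under every alternative run. The difference ranged from -1.66 to -0.69 for Tas2r135, from -1.42 to -0.60 for Tas2r143 and from -0.76 to -0.32 for Tas2r126 when single arrays were left out, with the smallest size without OVA 3 and the largest without OVA 1. The sign of 4 other members turned with OVA 2: with all 6 arrays Tas2r108 was at 0.05, Tas2r137 at 0.24, Tas2r138 at 0.17 and Tas2r118 at 0.25, and the replicate block over all 6 arrays gave these values as well. The count of members below PBS was 4, with 3 to 6 over the alternatives, and the 3 adjacent genes were among them each time. The median of the other Tas2r genes, -0.05, was 0.21 with all 6 arrays and with the replicate block over all 6 arrays. It ran from -0.17 to 0.01 when single arrays were left out. The FDR calls in these genes and in the transduction genes stayed at 0. Over all genes the FDR count was 8, and it was 1 with all 6 arrays, 563 with array weights, 0 to 68 with an array left out, 11 with quantile normalization or median centring, 1 with the filter, and 38 with the block or 2 with the block over all 6 arrays. The filter kept 4 of 8 members, 0 of 27 other Tas2r genes and 19 of 23 transduction genes. The cause of these shifts was not tested. Arrays with the same replicate number had deviations from their group means that correlated by -0.10, -0.03 and 0.01. The OVA means included OVA 2, which stood apart, so these values cannot show whether the numbers pair the arrays.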
